A study of Mus musculus with 12 samples.

Results

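Oxidative phosphorylation subunit genes were followed through 4 stages of mouse male germ cell development. The genes were chosen by symbol from the whole table: names that begin with Nduf and a letter a, b, c, s or v, Cox 4 to 8, Uqcr or Atp5, plus Sdha to Sdhd, if annotated as protein-coding and encoded in the nucleus. The rule found 94 of 55487 rows under 93 symbols, since Atp5o has 2 rows, and 13 pseudogene or noncoding rows with such names were left out. By role, 44 rows belong to complex I, 4 to complex II, 8 to complex III, 20 to complex IV and 18 to complex V. These totals include 8 Ndufaf genes, which encode assembly factors of complex I and not subunits, and 9 isoform or related genes of complex IV. Ndufa4 and Ndufa4l2 were counted with complex IV, where the Ndufa4 protein is now placed. A total of 90 rows reached 10 normalized counts in 3 libraries and were tested. The other 4, Atp5g1, Ndufa6, Cox8b and the second row of Atp5o, were listed at 0 in all 12 libraries and carry no level or fold here.

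The libraries were made from gonocytes, that is, testis germ cells that have not yet become spermatogonia, taken from Mvh-Venus transgenic mice, in which a fluorescent protein marks germ cells. Each of 4 stages had 3 libraries: E13.5 and E16.5, counted in days of gestation, and P0 and P3, counted in days from birth. The labels name no treatment and conflict on genotype: titles and source names call every sample WT, whereas the genotype tag reads Morc1 (+/-) at E13.5 and P0 and Morc1 (-/-) at E16.5 and P3. Samples were grouped by stage, so in comparisons of consecutive stages stage and tag cannot be told apart, while P0 against E13.5 and P3 against E16.5 stay within 1 tag. Nothing in the labels says that the 3 samples of a stage came from separate animals, so p-values measure the spread between these samples.

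Oxidative phosphorylation is the last stage of respiration, run by 5 protein complexes of the inner mitochondrial membrane. Complexes I (NADH dehydrogenase) and II (succinate dehydrogenase) pass electrons through ubiquinone to complex III and, by cytochrome c, to complex IV (cytochrome c oxidase), and complex V (ATP synthase) uses the proton gradient built on the way to make ATP. Complexes I, III, IV and V join subunits encoded in the nucleus with a few encoded in mitochondrial DNA, complex II is wholly nuclear, and several complex IV subunits have an isoform used in the testis, in muscle or in lung.

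Upstream sequences of 4 of these genes are shown because the balance of Cox7b and Cox7b2 and the fall of Ndufaf4 and Sdhd recur in the results. RefSeq promoter windows (GRCm38.p6), which run from 250 bases before to 50 bases after a gene's start, were matched for 76 of the 93 symbols, 74 by symbol and 2 by a RefSeq synonym. The 250 bases before the start are printed 5′ to 3′ on the gene's strand, with motif matches in capitals. As a check of strand, stretches of the 50 bases after the start were looked for in the gene's transcripts. They were found for Cox7b, Cox7b2 and Ndufaf4 but not for Sdhd. Genes on the opposite strand that may overlap these windows were not looked for. Cox7b lies at chrX:106015450-106015699 on the plus strand, Cox7b2 at chr5:71548206-71548455 on the minus strand, Ndufaf4 at chr4:24897833-24898082 on the plus strand and Sdhd at chr9:50603850-50604099 on the minus strand.
Cox7b: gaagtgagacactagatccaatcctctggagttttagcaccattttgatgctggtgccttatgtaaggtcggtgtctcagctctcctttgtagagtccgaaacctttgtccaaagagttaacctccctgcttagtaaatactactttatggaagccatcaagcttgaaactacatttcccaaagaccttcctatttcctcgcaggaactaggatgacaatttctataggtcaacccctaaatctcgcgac
Cox7b2: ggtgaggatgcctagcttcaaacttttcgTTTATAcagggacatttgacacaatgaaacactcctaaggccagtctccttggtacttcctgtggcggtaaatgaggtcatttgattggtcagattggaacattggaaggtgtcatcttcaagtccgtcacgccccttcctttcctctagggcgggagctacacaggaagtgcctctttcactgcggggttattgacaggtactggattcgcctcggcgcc
Ndufaf4: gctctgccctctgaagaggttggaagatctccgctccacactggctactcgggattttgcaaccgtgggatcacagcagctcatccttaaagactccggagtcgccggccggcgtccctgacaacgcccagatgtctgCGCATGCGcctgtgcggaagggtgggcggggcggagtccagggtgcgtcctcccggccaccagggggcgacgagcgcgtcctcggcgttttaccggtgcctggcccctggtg
Sdhd: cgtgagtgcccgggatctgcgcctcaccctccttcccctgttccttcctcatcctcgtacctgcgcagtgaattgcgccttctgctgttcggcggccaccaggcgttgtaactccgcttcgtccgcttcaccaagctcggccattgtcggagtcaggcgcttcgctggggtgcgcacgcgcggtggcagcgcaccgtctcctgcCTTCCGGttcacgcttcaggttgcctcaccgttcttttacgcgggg
The motifs searched on both strands were CGCATGCG, the core bound by NRF1, CCGGAAG, a core bound by ETS factors such as GABPA, AAGATGGCG, a core bound by YY1, and TATAAA, the TATA box, none of which overlap in the 4 sequences. Ndufaf4 held the NRF1 core, Sdhd the ETS core on the other strand and Cox7b2 a TATAAA on the other strand, and Cox7b held none of the 4. Over the whole 300-base window, the NRF1 core was in 11 of 76 members with a window (14.5%) and in 2.07% of 27025 genes. The ETS core was in 18 members (23.7%) and 9.93% of genes, the YY1 core in 8 members (10.5%) and 1.64% of genes, and TATAAA in 7 members (9.21%) and 15.7% of genes. A match describes letters in the window and not a bound site.

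Recovered reads numbered 40946616 to 51533747 per library. Of 10 germ cell markers, 0 were at or under a floor of 3 reads at any stage, but their levels differed widely: Ddx4, which encodes the Mvh protein, had 22150 to 62737 normalized counts over the 12 libraries, whereas Nanos2 had 6.79, 10.3 and 13.51 at P0. A normalized count is the read count of a gene divided by the size factor of its library in the deposited table. These factors were 1.84 to 2.07 at P0 and 0.919 to 1.263 at the other stages, so the scaling bears on every comparison that involves P0. Scaling all libraries to equal totals shifted the median log2 fold change over the genes tested from 0.31 to 0.84 for E16.5 against E13.5. The shift was from -0.01 to 0.68 for P0 against E16.5 and from 0.05 to -0.86 for P3 against P0. The genes tested numbered 22384 with the table's factors and 23221 with equal totals, and 22222 were tested in each of the 5 scalings used below. Levels by library are given in the order of the numbers 1, 3 and 4 in the column heads. Within P3, library 4 was the lowest of the 3 for 86 of 90 members, against 38.2% of all genes tested, and library 1 the highest for 83. Within E16.5, library 3 was the lowest for 71 of 90, against 30.2% of all genes. Bulk RNA cannot tell fewer cells of a type from less RNA per cell.

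As a share of all reads in a library, which no size factor touches, the 94 genes stood lower at E16.5 than at E13.5 and higher at P3 than at P0. They took 1.96, 2.04 and 2.09% of reads at E13.5, 1.61, 1.43 and 1.58% at E16.5, then 1.42, 1.39 and 1.495% at P0 and finally 1.84, 1.76 and 1.62% at P3. The E13.5 libraries lay above all others, those of E16.5 and P0 overlapped, and those of P3 lay above E16.5 and P0. Atp5b, the catalytic beta subunit of ATP synthase, alone made up 0.577% ± 0.025 (SD, n = 3) of reads at E13.5, and 0.275 to 0.313% on average at the later stages. Without Atp5b, the other genes took 1.45% ± 0.039, 1.23% ± 0.102, 1.16% ± 0.052 and 1.46% ± 0.105 at the 4 stages in order, so that P3 and E13.5 came out alike in the mean. With 3 libraries a stage an exact permutation test (2-sided) cannot go below 0.10, the value for each pair of stages that did not overlap (adjusted 0.128 over 55 such comparisons). These tests of summed shares were not planned. Since any pair of stages without overlap gives that value, they add nothing to the ranges of the libraries.

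**Figure D1:**
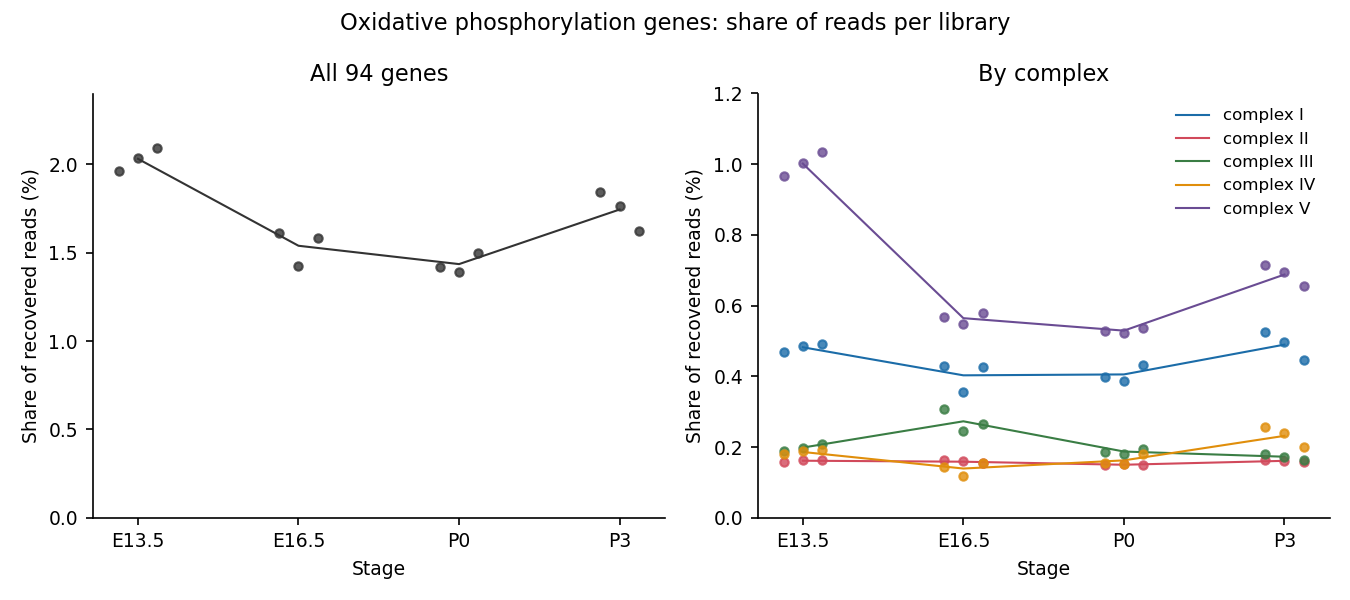
Share of recovered reads (%, vertical axis) taken by the 94 oxidative phosphorylation genes (left) and by each complex with its factors and isoforms (right) at 4 stages. Points are libraries and lines join the means of 3; complex V falls from 1.002% at E13.5 to 0.565% at E16.5, and complex III is highest at E16.5.

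The complexes did not share 1 course. Complex V took 1.002% ± 0.035 of reads at E13.5 and then 0.565% ± 0.016, 0.529% ± 0.008 and 0.688% ± 0.030 at the later stages in order. Complex IV had its highest share at P3, with 0.186% ± 0.005, 0.139% ± 0.019, 0.163% ± 0.015 and 0.232% ± 0.030 at the 4 stages in order. Complex II stayed within 0.148 to 0.163% in every library. Complex III took 0.273% ± 0.031 at E16.5 against 0.199% ± 0.010 at E13.5, and 1 gene carried that peak: without Uqcrc1 it took 0.099% ± 0.003, 0.060% ± 0.007, 0.069% ± 0.002 and 0.074% ± 0.008 at the 4 stages in order.

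Gene by gene, limma tested log2(normalized count + 1), with Benjamini-Hochberg adjustment over all genes and a threshold of 0.05; each adjusted p and fold change below is from this fit. All 90 genes differed among the 4 stages (F-test), as did 95.2% of all genes tested, so the count by itself marks nothing. From E13.5 to E16.5, 6 members rose and 74 fell, where 45.5% of all genes were called higher and 34.6% lower. The median log2 fold change of the members was -1.01, against 0.31 for all genes and -0.61 for the 6591 genes with a mean of at least 1000 normalized counts. Under equal totals the members' median was -0.50, with 17 higher and 59 lower, where 55.6% of all genes were called higher and 23.7% lower, and the median of genes with a mean of at least 1000 was -0.10. In each of the 5 scalings run, 59 members were lower and 6 higher, against 24.8% and 45.8% of all genes. In 81 of the 90 genes the 3 libraries of E16.5 did not overlap those of E13.5, as in 80.2% of all genes.

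From E16.5 to P0 the direction rested on the scaling. With the factors of the table, 12 members rose and 60 fell (27.6% and 33.4% of all genes), with a median of -0.53 against -0.01 for all genes. With equal totals, 39 rose and 24 fell (54.9% and 14.8% of all genes), with a median of 0.13, against 0.14 for genes with a mean of at least 1000. The 12 that rose under the table's factors rose in each of the 5 scalings, as did 26.9% of all genes: Atp5f1, Atp5j, Cox4i2, Cox6a2, Ndufa1, Ndufa12, Ndufa4l2, Ndufa5, Ndufaf3, Ndufaf4, Ndufaf6 and Ndufv2. A further 24 fell in each of the 5, against 15.5% of all genes. The libraries of the 2 stages did not overlap for 71 of the 90 members, as for 69.5% of all genes.

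From P0 to P3, 83 members rose and 2 fell, where 40.1% of all genes were called higher and 36.4% lower. The members' median was 1.45, against 0.05 for all genes and 0.91 for genes with a mean of at least 1000. Equal totals left 60 higher and 17 lower, where 19.7% of all genes were called higher and 58.4% lower, and a median of 0.61, against 0.07 for genes with a mean of at least 1000. In each of the 5 scalings 60 members rose, against 20.6% of all genes, and 2, Cox4i2 and Ndufaf6, fell, against 36.1%. For 85 members the libraries of P0 and P3 did not overlap, as for 81.0% of all genes.

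The other 2 comparisons join stages with a common genotype tag, but share libraries with the consecutive ones and are not independent of them. P0 against E13.5 had 4 members higher and 84 lower (45.7% and 40.5% of all genes), with a median of -1.74, against -1.18 for genes with a mean of at least 1000. Median-of-ratios factors moved the members' median to -1.26 and equal totals to -0.57, with 16 higher and 57 lower (66.2% and 19.6% of all genes). In each of the 5 scalings 4 were higher and 57 lower (45.7% and 20.5% of all genes). For each of the 90, and for 88.1% of all genes, the libraries of the 2 stages did not overlap. P3 against E16.5 had 65 higher and 8 lower (34.2% and 35.2% of all genes), with a median of 0.79, and with equal totals 56 higher and 13 lower (29.0% and 40.3%), with a median of 0.61. In each of the 5 scalings 56 were higher and 8 lower (29.6% and 35.4% of all genes), and the libraries did not overlap for 65 members, against 71.6% of all genes.

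The stage of the lowest level also rested on the scaling. With the table's factors the lowest mean stood at P0 for 68 genes, at E16.5 for 16, at E13.5 for 4 and at P3 for 2. With equal totals it stood at P0 for 28, at E16.5 for 35, at E13.5 for 16 and at P3 for 11. The highest mean stood at E13.5 for 64 and at P3 for 22 with the table's factors, and at E13.5 for 35 and at P3 for 37 with equal totals. The median gene had 29.9% of its E13.5 level at P0 and 80.5% at P3 with the table's factors, and 67.3% and 100.9% with equal totals. At P3, 24 genes were higher on average than at E13.5, and 47 with equal totals.

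Cell type markers moved over the same intervals. With the table's factors, the 10 germ cell markers summed to 268895 to 279727 normalized counts at E13.5 and 246482 to 271445 at E16.5. Their sums were 137632 to 146401 at P0 and 235056 to 252907 at P3. All genes together summed to 52849368 to 54397541 normalized counts at E13.5 and 36124232 to 39072941 at E16.5. They summed to 23044303 to 24866058 at P0 and 41997119 to 43508115 at P3. Sums of markers thus rest on the scaling too, and they were not taken as shares of reads. Of the 10 germ cell markers, 4 rose and 5 fell from E13.5 to E16.5 (5 and 3 with equal totals). At P0, 1 rose and 8 fell (2 and 7), and at P3, 9 rose and 1 fell (6 and 2). The 38 markers of Sertoli, Leydig, peritubular and stromal, endothelial, macrophage, blood and mast cells summed to 6689 to 8431, 9133 to 19622, 20493 to 38263 and 7452 to 9557 at the 4 stages in order, with 9, 2, 0 and 4 of them at or under the floor. Of these, 24 rose and 1 fell from E13.5 to E16.5 (26 and 1 with equal totals), 17 rose and 1 fell at P0 (26 and 1), and 1 rose and 27 fell at P3 (1 and 34). With the table's factors, most members and most germ cell markers were lower at P0 than at E16.5 and higher at P3 than at P0. Nearly all calls of the other markers went the other way there. With equal totals the members' median for P0 against E16.5 was 0.13, whereas 2 germ cell markers rose and 7 fell. The parallel between members and germ cell markers at P0 is therefore given for the table's factors only. The part of any of these markers in the counts of members was not tested.

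**Figure D2:**
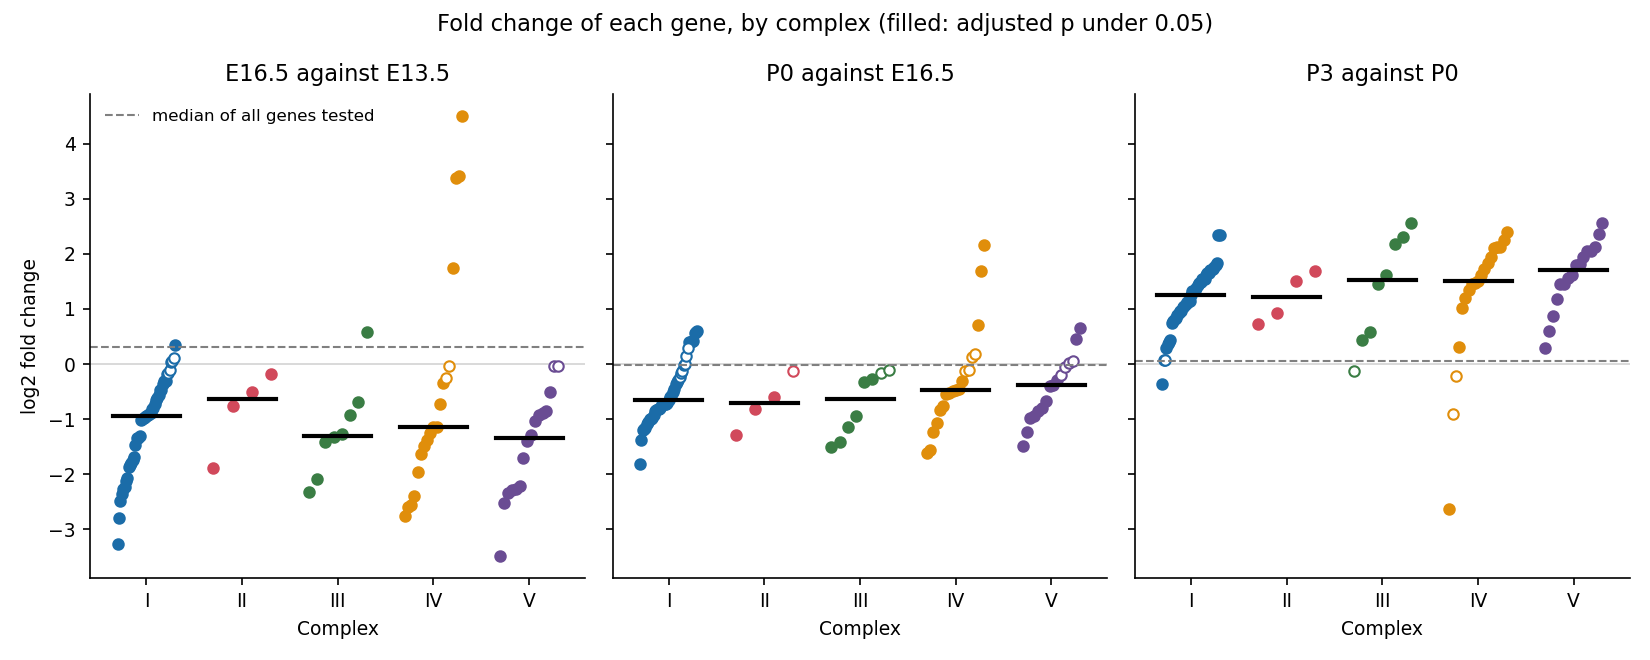
Log2 fold change (vertical axis, limma on log2(normalized count + 1), table's factors) of the 90 tested genes by complex, for 3 comparisons of consecutive stages. Filled points passed an adjusted p of 0.05, black bars are the medians of a complex and the dashed line is the median of all genes; the 4 complex IV points far above 0 on the left are Cox4i2, Cox7b2, Cox6a2 and Cox8c.

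The core subunits of complex I encoded in the nucleus hold its flavin and its iron-sulfur clusters or help to bind the quinone, and those described here split at E16.5. Ndufv2, an iron-sulfur subunit of the NADH-binding module, had 11890.0, 10987 and 11065 normalized counts in the E13.5 libraries, 1544, 1489 and 1862 in those of E16.5, 2031, 2210.0 and 2176 in those of P0 and 6814, 6069 and 5216 in those of P3. It fell by 2.80 on the log2 scale at E16.5 (SE 0.0981, adjusted p = 1.53e-13).

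Ndufv1, which binds NADH and the flavin in the same module as Ndufv2, had 30771, 31354 and 33163 normalized counts in the E13.5 libraries, 39552, 32079 and 32106 in those of E16.5, 20562, 18095 and 19495 in those of P0 and 39603, 36262 and 36941 in those of P3. Its E13.5 and E16.5 libraries overlapped, and its log2 fold change of 0.12 did not pass (adjusted p = 0.205), although with equal totals it was 0.62 and passed. Ndufs8, an iron-sulfur subunit, had 6249, 6596 and 6991 normalized counts in the E13.5 libraries, 9647, 7303 and 8536 in those of E16.5, 5025, 4829.8 and 5525 in those of P0 and 16722, 15049 and 13470.4 in those of P3, with all 3 libraries of E16.5 above all 3 of E13.5. It was the 1 complex I gene that rose at E16.5 (0.35, SE 0.0988, adjusted p = 0.00363), and its P3 libraries were its highest.

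Further core subunits fell at E16.5. Ndufs1, which carries iron-sulfur clusters, had 18834, 17825 and 18659 normalized counts in the E13.5 libraries, 5717, 5963 and 5442 in those of E16.5, 4807, 4590.1 and 3999.8 in those of P0 and 9752, 9701 and 8880.1 in those of P3. Ndufs3, of the quinone module, had 7679, 7875 and 8033 normalized counts in the E13.5 libraries, 2344, 1981 and 2353 in those of E16.5, 2416, 2384 and 2613 in those of P0 and 6889.8, 6359.8 and 5993 in those of P3, with 35.8% of its 50-base words found in transcripts of other genes. Ndufs7, which holds the cluster nearest to the quinone, had 12600.4, 13081 and 15514 normalized counts in the E13.5 libraries, 9951, 7506 and 9531 in those of E16.5, 5085, 4472 and 5751 in those of P0 and 10397, 9551 and 8492 in those of P3. Their log2 fold changes at E16.5 were -1.69, -1.82 and -0.61, and with equal totals that of Ndufs7 was -0.11 and no longer passed.

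Of the 28 tested accessory subunits of complex I, 26 fell at E16.5 and 26 rose at P3 with the table's factors, with the other 2 not passing in each. Of all genes, 34.6% were called lower at E16.5 and 40.1% higher at P3. With equal totals the subunits' medians were -0.41 and 0.48. At P0, 22 fell and 3 rose with the table's factors (33.4% and 27.6% of all genes). Their median of -0.71 there became -0.05 with equal totals, so that fall rested on the scaling. Ndufc1, a small subunit of the membrane arm, had 2693, 2683 and 2279 normalized counts in the E13.5 libraries, 602, 473 and 706 in those of E16.5, 309, 338 and 277 in those of P0 and 1819, 1668 and 1264 in those of P3. Its P0 libraries were its lowest, and its rise at P3 (2.35, SE 0.149, adjusted p = 3.62e-10) was the highest of complex I. Among the 8 assembly factors, Ndufaf1 had 6288, 6089 and 6388 normalized counts in the E13.5 libraries, 7213, 6332 and 6013 in those of E16.5, 2042, 1814 and 1714 in those of P0 and 2620.3, 2561 and 2201 in those of P3. Its 2 earlier stages overlapped and both lay above the 2 later ones; it fell by 1.81 at P0 (SE 0.0892, adjusted p = 4.06e-11) and remained lower at P3 than at E16.5 (-1.41). Ndufaf4 had 3644, 3759.6 and 3472 normalized counts in the E13.5 libraries, 716, 774 and 837 in those of E16.5, 1202, 1163 and 1151 in those of P0 and 2545, 2586 and 2074 in those of P3. It was low at E16.5, and rose by 0.60 at P0 (SE 0.0915, adjusted p = 2.80e-05). Ndufaf6 had 3955, 3995 and 4182 normalized counts in the E13.5 libraries, 849, 757 and 749.5 in those of E16.5, 992, 993 and 1118 in those of P0 and 959, 837 and 641 in those of P3, with E13.5 far above the 3 later stages. Its fall from P0 to P3 (-0.37, SE 0.118, adjusted p = 0.0102) did not pass without P3 library 4.

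**Figure D3:**
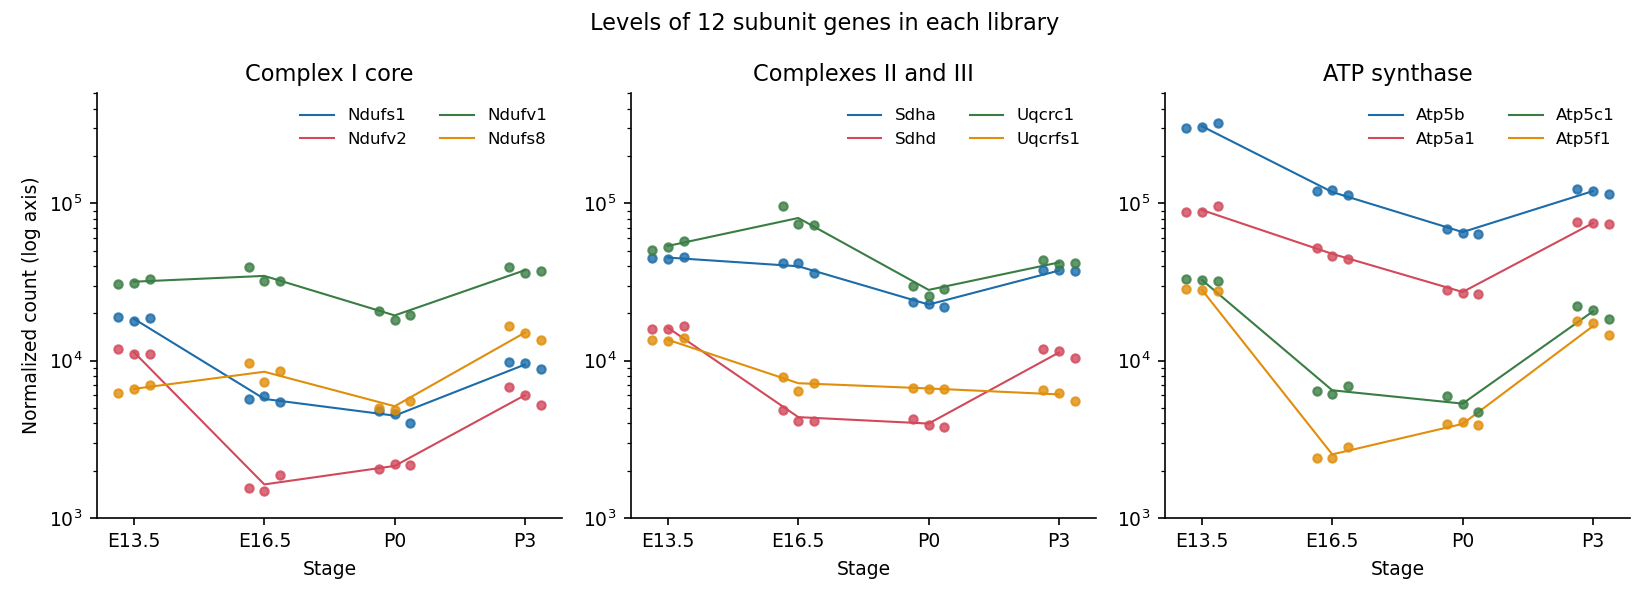
Normalized counts (log axis) of 12 subunit genes in each library at 4 stages, with lines through the means of 3. Levels are not per length and are not to be compared between genes; Ndufv2, Sdhd, Atp5c1 and Atp5f1 drop steeply at E16.5, Sdha drops slightly with the table's factors, and Ndufs8 and Uqcrc1 are higher there.

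Complex II oxidizes succinate and is also an enzyme of the citric acid cycle. Sdha, its flavin subunit, had 45265, 44504 and 45916 normalized counts in the E13.5 libraries, 41486, 41841 and 36153 in those of E16.5, 23560.4, 22847 and 21783 in those of P0 and 37546, 37428 and 37229.9 in those of P3. Its log2 fold change at E16.5 was -0.19 (adjusted p = 0.0175) with the table's factors and 0.32 with equal totals, and at P3 against P0 it was 0.72 and, with equal totals, -0.12, so no direction holds for it. Sdhb, the iron-sulfur subunit, had 17319, 17576 and 17785 normalized counts in the E13.5 libraries, 11751, 9352 and 10176 in those of E16.5, 6883, 6764 and 6997 in those of P0 and 14178, 13134 and 11893 in those of P3. Sdhc and Sdhd anchor the enzyme in the membrane, and they took different courses. Sdhc had 7863, 7785 and 7449.6 normalized counts in the E13.5 libraries, 5616, 5548 and 5127 in those of E16.5, 2213, 2278 and 2192 in those of P0 and 7346, 7087 and 7039.9 in those of P3. Its low point was at P0, where it fell by 1.28 (SE 0.0625, adjusted p = 3.58e-11). Sdhd had 15980.3, 15971 and 16604 normalized counts in the E13.5 libraries, 4847, 4157 and 4109 in those of E16.5, 4228, 3918 and 3785 in those of P0 and 11901, 11517 and 10380.2 in those of P3. It was low already at E16.5, where it fell by 1.89 (SE 0.0775, adjusted p = 9.56e-13). At P3 Sdhc rose by 1.68 (SE 0.0625, adjusted p = 5.65e-13), the highest of complex II.

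In complex III, Uqcrc1 rose at E16.5 and the 7 other subunits fell with the table's factors, where 45.5% of all genes were called higher and 34.6% lower. Uqcrc1, a core subunit related to mitochondrial processing peptidases, had 50426, 52680.1 and 57783 normalized counts in the E13.5 libraries, 96183, 73676 and 72385 in those of E16.5, 29869, 25899 and 28740.2 in those of P0 and 43503, 41338 and 41539.8 in those of P3. The E16.5 libraries lay above all others, and the rise from E13.5 was 0.58 (SE 0.0969, adjusted p = 3.67e-05). It then fell by 1.51 at P0 (SE 0.0969, adjusted p = 9.17e-10), the steepest fall of the complex there. Uqcrc2, its partner in the core, had 15382, 15431 and 16702 normalized counts in the E13.5 libraries, 6441, 5656 and 5686 in those of E16.5, 4936, 5114 and 4614 in those of P0 and 7017, 6665 and 6064 in those of P3. It fell by 1.42 at E16.5 (SE 0.0759, adjusted p = 2.66e-11). Per kb of exon, Uqcrc1 went from 12970 to 19528 normalized counts on average from E13.5 to E16.5 while Uqcrc2 went from 6206 to 2323.

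Uqcrfs1, the Rieske iron-sulfur protein, had 13533, 13326 and 13842 normalized counts in the E13.5 libraries, 7880.1, 6451 and 7217 in those of E16.5, 6742, 6613 and 6609 in those of P0 and 6542, 6197 and 5548 in those of P3. After its fall at E16.5 (-0.92) it was, with the table's factors, 1 of 2 members, with Cox7a1, whose lowest mean was at P3. With equal totals the lowest mean stood at P3 for 11 members. The change of Uqcrfs1 from P0 to P3 did not pass (-0.13, adjusted p = 0.139), and it passed as a fall with TMM, median-of-ratios and equal-total scaling. Uqcr11, a small subunit, had 3708, 3788 and 4029.7 normalized counts in the E13.5 libraries, 1669, 1228 and 1729 in those of E16.5, 575, 506 and 638 in those of P0 and 3835, 3509 and 2849 in those of P3. It rose by 2.56 at P3 (SE 0.130, adjusted p = 2.19e-11). Uqcr10 had 3512, 3846 and 4082 normalized counts in the E13.5 libraries, 788, 625 and 902 in those of E16.5, 604, 589 and 639.5 in those of P0 and 3174, 2898 and 2311 in those of P3. It fell the most in complex III at E16.5 (-2.32, SE 0.128, adjusted p = 4.20e-11).

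With the table's factors, all 11 subunits of complex IV outside the isoform set fell at E16.5 and rose at P3. Of all genes, 34.6% were called lower at E16.5 and 40.1% higher at P3. The medians of the 11 were -1.38 and 1.72, and -0.87 and 0.88 with equal totals. Cox7a2 had 7961, 7994 and 7959.6 normalized counts in the E13.5 libraries, 1236, 1013 and 1292 in those of E16.5, 848, 785 and 820.0 in those of P0 and 5026, 4574 and 3425 in those of P3, with E13.5 above P3 and both above the middle stages. It fell by 2.76 at E16.5 (SE 0.118, adjusted p = 1.56e-12) and rose by 2.39 at P3 (SE 0.118, adjusted p = 1.49e-11), the extremes of complex IV in both. Ndufa4 had 6617, 6205 and 6036 normalized counts in the E13.5 libraries, 1031, 923 and 1194 in those of E16.5, 827, 859 and 829 in those of P0 and 4596, 4376 and 3181 in those of P3, with the same order of stages. Cox4i1, a core nuclear subunit that binds regulators such as ATP, had 25684, 27093 and 28558 normalized counts in the E13.5 libraries, 23758, 18185 and 22489.6 in those of E16.5, 15534, 14043 and 16975 in those of P0 and 40240.1, 36424 and 31177 in those of P3. Its log2 fold change of -0.34 at E16.5 turned to 0.16 with equal totals. Cox6a1, at the dimer contact, had 9975, 10447 and 11311 normalized counts in the E13.5 libraries, 5262, 3916 and 5236 in those of E16.5, 4385, 4126 and 4838 in those of P0 and 12745, 11686 and 9487 in those of P3. Cox6b1, which links the monomers of the dimer, had 4748, 4495 and 4783 normalized counts in the E13.5 libraries, 2188, 1821 and 2426 in those of E16.5, 1259, 1174 and 1335 in those of P0 and 4942, 4218 and 3399 in those of P3. Cox6c, for which this table has 1 gene, had 6588, 6183 and 5975 normalized counts in the E13.5 libraries, 2588, 2307 and 2984 in those of E16.5, 1917, 1592 and 1894 in those of P0 and 6532, 5824 and 4417 in those of P3. Cox8a, the smallest subunit, had 4795, 5284 and 5365 normalized counts in the E13.5 libraries, 1739, 1400.3 and 1843 in those of E16.5, 1809.7, 1774 and 2082 in those of P0 and 8385, 7428 and 6219 in those of P3. Its P3 libraries lay above those of every other stage, and P3 was 2.14 above E16.5 (SE 0.114, adjusted p = 5.41e-11).

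The isoforms of complex IV departed from their partners. Cox7b2, the partner of Cox7b known from testis, had 57.0, 45.7 and 52.6 normalized counts in the E13.5 libraries, 528, 510.5 and 651 in those of E16.5, 304, 312 and 323 in those of P0 and 1494, 1483 and 1172 in those of P3. It was low in all 3 libraries at E13.5 and highest at P3, and rose by 3.42 at E16.5 (SE 0.142, adjusted p = 1.11e-12). Cox7b had 3610.1, 3841 and 3615 normalized counts in the E13.5 libraries, 1353, 1127 and 1508 in those of E16.5, 469.9, 477 and 394 in those of P0 and 1434, 1314 and 956 in those of P3. It was highest at E13.5, and fell by 1.48 at E16.5 (SE 0.137, adjusted p = 3.25e-08) and by a further 1.56 at P0 (SE 0.137, adjusted p = 4.17e-08). Within a library, and so free of scaling, Cox7b2 made up 3.42, 2.60 and 3.15% in the E13.5 libraries, 46.6, 50.4 and 49.1% in those of E16.5, 59.2, 59.4 and 64.7% in those of P0 and 70.0, 71.7 and 73.3% in those of P3 of the pair per kb of exon. The 4 stages did not overlap, and the share was higher at each later stage. Counted in reads without length, the stage means were 1.39, 29.8, 41.3 and 53.0%. Cox7b2 (chromosome 5) had no 50-base word in common with transcripts of other genes, and Cox7b (chromosome X) 0.630% of its words.

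**Figure D4:**
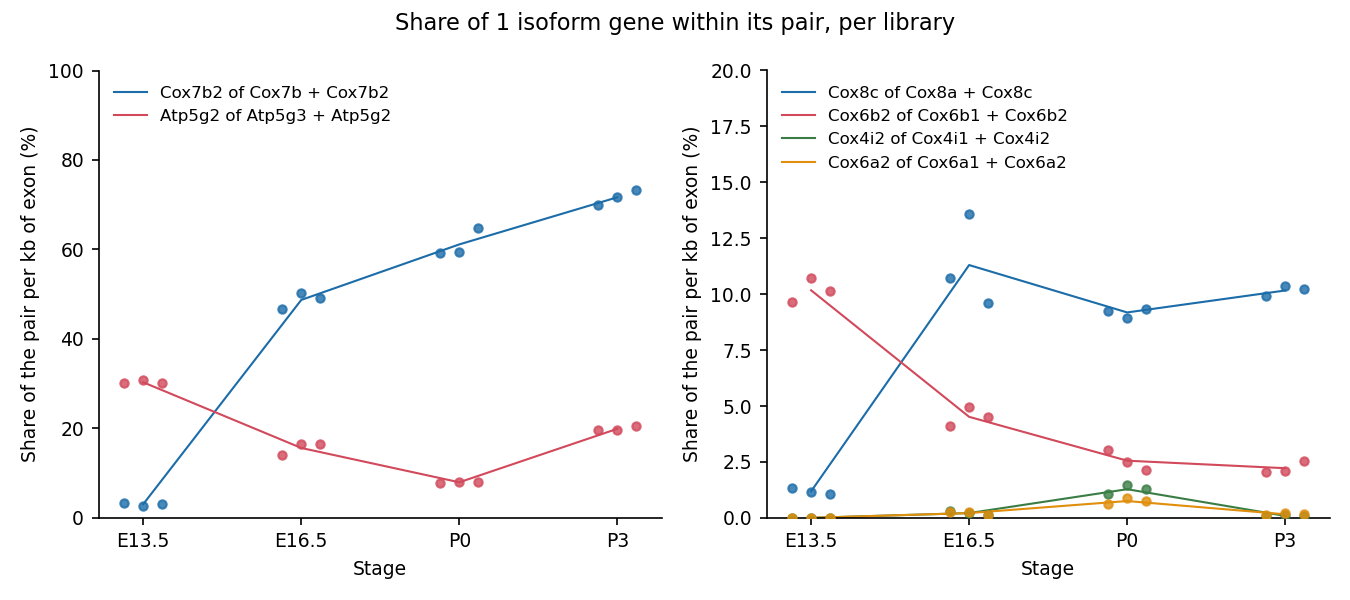
Share of 1 isoform gene within its pair (%, per kb of exon, vertical axis) in each library at 4 stages, with lines through the means of 3. Cox7b2 climbs from 3.06% to 71.7% of its pair, while Atp5g2 goes from 30.3% at E13.5 to 7.95% at P0.

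Cox8c, a testis form of Cox8a, had 48.6, 45.7 and 42.1 normalized counts in the E13.5 libraries, 155, 163 and 145 in those of E16.5, 137, 129 and 159 in those of P0 and 683, 635 and 523 in those of P3. It rose by 1.74 at E16.5 (SE 0.169, adjusted p = 6.35e-08) while Cox8a fell by 1.64, and again by 2.11 at P3 (SE 0.169, adjusted p = 7.02e-09). Its share of the pair was 1.35, 1.16 and 1.05% in the E13.5 libraries, 10.7, 13.6 and 9.60% in those of E16.5, 9.27, 8.93 and 9.35% in those of P0 and 9.92, 10.4 and 10.2% in those of P3, so E13.5 stood apart and the later stages lay close to each other. Cox6b2, the testis form of Cox6b1, ran the opposite way. It had 794, 843 and 847 normalized counts in the E13.5 libraries, 147, 148 and 179 in those of E16.5, 61.6, 47.3 and 45.4 in those of P0 and 161, 141 and 138 in those of P3. It fell by 2.39 at E16.5 (SE 0.167, adjusted p = 9.00e-10) and by 1.61 at P0 (SE 0.167, adjusted p = 3.49e-07). Its share of the pair was 9.65, 10.7 and 10.2% in the E13.5 libraries, 4.11, 4.93 and 4.50% in those of E16.5, 3.03, 2.51 and 2.13% in those of P0 and 2.04, 2.10 and 2.52% in those of P3. The 3 isoforms known from testis thus did not move together, with Cox7b2 and Cox8c up and Cox6b2 down at E16.5.

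Cox4i2 and Cox6a2, known from lung and from muscle, were low. Cox4i2 had 0, 0 and 0 normalized counts in the E13.5 libraries, 35.3, 20.5 and 14.2 in those of E16.5, 86.2, 106 and 113 in those of P0 and 14.5, 19.6 and 13.2 in those of P3. Cox6a2 had 0, 0 and 0 normalized counts in the E13.5 libraries, 12.4, 10.2 and 6.33 in those of E16.5, 26.1, 35.3 and 36.2 in those of P0 and 13.6, 22.6 and 15.2 in those of P3. Both were at 0 in all 3 libraries of E13.5 and highest at P0. Against a floor of 3 reads per library at E13.5, Cox4i2 was at least 7.30-fold higher at E16.5 and Cox6a2 at least 3.02-fold. Cox4i2 fell by 2.63 from P0 to P3 (SE 0.400, adjusted p = 1.59e-05). At P0 Cox4i2 was 1.28% ± 0.192 of its pair with Cox4i1 per kb, and Cox6a2 0.751% ± 0.133 of its pair with Cox6a1. The summed level of 6 peritubular and stromal markers was also lowest at E13.5 and highest at P0, with 223 to 256, 1751 to 2188, 3594 to 3970.3 and 1428 to 1525 normalized counts at the 4 stages in order. All 6 markers were found, 0 were at or under the floor of 3 reads at any stage, and 3 of 6 rose at P0. The 7 Sertoli markers summed to 1370 to 2129, 2873 to 5998, 10959 to 20758 and 4444 to 6336 at the 4 stages, with 6 of 7 higher at P0 and 1 at or under the floor at E13.5 and at P3. The 5 mast cell markers summed to 0 in each E13.5 library, to 19.5 to 35.6 at E16.5, to 1448 to 3013 at P0 and to 3.04 to 304 at P3, with 5 of 5 higher at P0 and 5 of 5 lower at P3. Blood markers (5) summed to 66.3 to 443, 1791 to 2513, 1599 to 2532 and 291 to 546 at the 4 stages, and Leydig markers (6) to 573 to 729, 623 to 7763, 1133 to 6201 and 179 to 267. Macrophage markers had their highest sums at E16.5 (975 to 1156) and endothelial markers at E13.5 (4343 to 5085). Single genes made up most of these sums, Cd68 at E16.5 (863 to 1049) and Pecam1 at E13.5 (4326 to 5074). Inha likewise made up most of the Sertoli sum at P0 (8256 to 15802). Of the peritubular and stromal markers, Acta2, Myh11 and Des had their highest means at P0, Pdgfra at E16.5, and Tcf21 and Col1a1 at P3. Adgre1, Lyz2 and C1qa had their highest means at P0, and Csf1r at E16.5. Tie1, Kdr and Cdh5 had their lowest means at E13.5 (0, 2.84 and 9.92). They stood at 692, 89.7 and 45.3 at P0, and Kdr was highest at P3. The part of these cell types in the levels of Cox4i2 and Cox6a2 was not tested.

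Cox7a1, the heart and muscle form of Cox7a2, had 195, 211 and 239.8 normalized counts in the E13.5 libraries, 188, 130.2 and 236 in those of E16.5, 91.4, 78.2 and 87.4 in those of P0 and 85.3, 75.6 and 60.7 in those of P3. The gene itself did not pass at E16.5. Its share of the pair with Cox7a2 was 4.15, 4.45 and 5.05% in the E13.5 libraries, 21.2, 18.5 and 24.4% in those of E16.5, 15.98, 15.0 and 15.8% in those of P0 and 2.91, 2.83 and 3.03% in those of P3. P3 was below E16.5 by 1.28 on the log2 scale (SE 0.224, adjusted p = 7.98e-05). Cox7a2l, a related protein that helps complexes III and IV associate, had 9238, 8903 and 9387 normalized counts in the E13.5 libraries, 9709, 8082 and 9264 in those of E16.5, 6551, 6327 and 6762 in those of P0 and 9086, 8277 and 7169 in those of P3, with E13.5 and E16.5 overlapping. Ndufa4l2, a relative of Ndufa4 known to respond to low oxygen, had 134, 132 and 145 normalized counts in the E13.5 libraries, 32.4, 30.7 and 40.4 in those of E16.5, 61.1, 60.3 and 48.7 in those of P0 and 139, 93.3 and 116 in those of P3. It peaked as a share of its pair at P0 (7.86% ± 0.846).

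ATP synthase held the steepest fall of the whole set between consecutive stages. Atp5f1, the b subunit of the peripheral stalk, had 28667, 28066 and 27871 normalized counts in the E13.5 libraries, 2388, 2402 and 2808 in those of E16.5, 3927, 4078 and 3872 in those of P0 and 17912, 17245 and 14598 in those of P3. It fell by 3.48 at E16.5 (SE 0.0817, adjusted p = 2.19e-15), then rose by 0.65 at P0 (SE 0.0817, adjusted p = 3.32e-06) and by 2.06 at P3 (SE 0.0817, adjusted p = 1.12e-12). Of its 50-base words, 23.2% occur in transcripts of other genes. Atp5c1, the gamma subunit that turns inside the catalytic head, had 32972, 32582 and 32309.5 normalized counts in the E13.5 libraries, 6393, 6127 and 6907 in those of E16.5, 5969, 5287 and 4724 in those of P0 and 22385, 21051 and 18294 in those of P3. It fell by 2.33 at E16.5 (SE 0.0883, adjusted p = 3.73e-13).

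The subunits of the catalytic head did not fall alike. Atp5a1, the alpha subunit, had 88223, 88445 and 95551 normalized counts in the E13.5 libraries, 52388, 46456 and 44406 in those of E16.5, 28309, 27025 and 26604 in those of P0 and 76205, 74696 and 74039.7 in those of P3, with P3 below E13.5 and above both other stages. Atp5b, the beta subunit, had 300365, 304691 and 323685 normalized counts in the E13.5 libraries, 119802, 120803 and 113683 in those of E16.5, 68903, 64393 and 63781 in those of P0 and 124364, 120429.8 and 114514 in those of P3, with P3 and E16.5 overlapping far below E13.5. Alpha and beta stand in equal numbers in the enzyme, and per kb of exon Atp5b averaged 73066 and Atp5a1 28944 normalized counts at E13.5, and 28267 and 23917 at P3. Atp5d, the delta subunit of the central stalk, had 13993, 15002 and 16633 normalized counts in the E13.5 libraries, 16251, 12994 and 15223 in those of E16.5, 6223, 5749 and 6848 in those of P0 and 20180.2, 17997 and 17484 in those of P3. Its E13.5 and E16.5 libraries overlapped, and it fell by 1.24 at P0 (SE 0.0940, adjusted p = 7.37e-09). Atp5h, of the peripheral stalk, had 4859.9, 4767 and 4805 normalized counts in the E13.5 libraries, 797, 753 and 973 in those of E16.5, 883, 775 and 901 in those of P0 and 6054, 4886 and 4238 in those of P3. It had the largest rise of complex V at P3 (2.55, SE 0.118, adjusted p = 6.63e-12), with 47.9% of its words found elsewhere. Atp5s, named as an ATP synthase factor, had 729, 709 and 664 normalized counts in the E13.5 libraries, 695, 694 and 674 in those of E16.5, 651, 614 and 535 in those of P0 and 1032, 903 and 801 in those of P3 and did not pass at E16.5 or P0.

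The c subunit, whose ring turns with the proton flow, is encoded by Atp5g1, Atp5g2 and Atp5g3 as one mature protein. Atp5g1 was listed at 0 throughout. Atp5g2 had 7194, 7277 and 7176 normalized counts in the E13.5 libraries, 1394, 1416 and 1719 in those of E16.5, 536, 522 and 551 in those of P0 and 2143, 1957 and 1613 in those of P3. Atp5g3 had 21725, 21365 and 21756 normalized counts in the E13.5 libraries, 11137, 9394 and 11377 in those of E16.5, 8328, 7703 and 8229 in those of P0 and 11451, 10422 and 8168 in those of P3. Both fell at E16.5, Atp5g2 by 2.26 (SE 0.102, adjusted p = 2.90e-12) and Atp5g3 by 1.03 (SE 0.102, adjusted p = 8.26e-08). Atp5g2 fell by a further 1.49 at P0 (SE 0.102, adjusted p = 1.97e-09), the steepest of complex V there. Per kb, Atp5g2 was 30.1, 30.7 and 30.0% in the E13.5 libraries, 14.0, 16.4 and 16.4% in those of E16.5, 7.73, 8.10 and 8.02% in those of P0 and 19.6, 19.6 and 20.5% in those of P3 of the 2 genes, and no library of P0 overlapped one of another stage. The rise of Atp5g3 at P3 (0.29, adjusted p = 0.0152) turned to -0.15 with median-of-ratios factors and -0.55 with equal totals. The 9 isoform pairs gave 45 tests between stages (exact permutation test, 2-sided, on the log2 ratio within a library), where pairs of stages without overlap reached the smallest p allowed, 0.10 (adjusted 0.113).

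Genes that work with the complexes were read from lists of the pathway. The 37 rows of the mitochondrial chromosome, among them the 13 protein-coding genes of complexes I, III, IV and V, were all listed at 0 reads, so nuclear and mitochondrial levels could not be set side by side. With the table's factors 34.6% of all genes were lower at E16.5 and 40.1% higher at P3, and genes with a mean of at least 1000 had medians of -0.61 and 0.91. Of 35 tested assembly factors outside the rule, 1 rose and 32 fell at E16.5 (median -0.99), and 35 rose at P3 (median 1.201); with equal totals the medians were -0.48 and 0.36. Among 76 mitochondrial ribosomal protein genes, 9 rose and 60 fell at E16.5 (median -0.85), and 70 rose and 2 fell at P3 (median 1.25); with equal totals the medians were -0.34 and 0.41. Cytosolic ribosomal protein genes had similar counts, with 2 higher and 84 lower of 89 at E16.5 (median -1.25) and 81 higher and 1 lower at P3 (median 1.32); with equal totals the medians were -0.74 and 0.49. A list of 18 genes held citric acid cycle enzymes, without Sdha to Sdhd, and pyruvate dehydrogenase genes (Pdha1, Pdhb, Dlat and Pdhx). Of these, 13 fell and 5 did not pass at E16.5, and 14 rose and 3 fell at P3 (median 0.82). With equal totals the median at P3 was -0.02, so no direction holds for this list there. Glycolysis enzymes were mixed, with 6 higher and 8 lower of 17 at E16.5 and 8 higher and 6 lower at P3, where the median was 0.11 with the table's factors and -0.73 with equal totals. As a share of reads, glycolysis enzymes went from 0.936% ± 0.043 at E13.5 to 0.614% ± 0.013 at P3, with no overlap among the 4 stages.

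Regulators of mitochondrial biogenesis varied in course. Of 21 tested, 6 rose and 13 fell at E16.5 (45.5% and 34.6% of all genes), and 14 rose and 4 fell at P3 (40.1% and 36.4%). Their medians were -0.54 and 0.76 with the table's factors, and -0.04 and -0.08 with equal totals. Nrf1, which encodes the factor of the NRF1 core, had 8806, 8779 and 9556 normalized counts in the E13.5 libraries, 3347, 3433 and 3057 in those of E16.5, 2314, 2100.3 and 2192 in those of P0 and 5969, 5807 and 5903 in those of P3. Gabpa, an ETS factor, had 5264, 4877 and 4664 normalized counts in the E13.5 libraries, 1468, 1723 and 1550.5 in those of E16.5, 2244, 2401 and 2094 in those of P0 and 6785, 6745 and 6453 in those of P3. Tfam, which packages and transcribes mitochondrial DNA, had 6911, 6798 and 6662 normalized counts in the E13.5 libraries, 2364, 2133 and 2182 in those of E16.5, 1376, 1444 and 1380.4 in those of P0 and 4344, 4150.1 and 3965 in those of P3. With the table's factors, in all 3 genes the E16.5 and P0 libraries lay below those of E13.5 and P3. That order is given for this scaling only and need not hold with equal totals. Ppargc1a, the coactivator PGC-1alpha, had 8.44, 0 and 11.6 normalized counts in the E13.5 libraries, 66.8, 62.3 and 49.9 in those of E16.5, 144, 167 and 181 in those of P0 and 2.91, 13.7 and 10.1 in those of P3. Esrrg, a nuclear receptor it activates, had 3.17, 14.1 and 11.6 normalized counts in the E13.5 libraries, 40.1, 91.1 and 57.0 in those of E16.5, 225, 304 and 247 in those of P0 and 70.7, 48.1 and 82.0 in those of P3. Both were low and had their highest levels at P0, as did Cox4i2, Cox6a2 and the summed stromal, Sertoli and mast cell markers given above, whose part in these levels was not tested.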

How the data were processed

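The authors deposited 1 table of signal per gene for 12 RNA-seq libraries, with values that are read counts divided by 1 size factor per library; per the labels' protocols, small-input RNA was amplified with SMART-seq v4 before TruSeq libraries. HISAT2 2.1.0, featureCounts 1.5.2, cutadapt 1.18 and DESeq2 1.26.0 are named in the submitters' processing notes, with mm10. How strand and multiply matching reads were treated is not given in the sources used here. Whole reads were recovered (100% whole multiples within 0.001), at 40946616 to 51533747 per library; counting error alone is covered by floors.

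Columns carry the numbers 1, 3 and 4 and were assigned to stages only. Symbols, coordinates and lengths of exons were taken from GENCODE M21 (GRCm38; 99.5% of identifiers matched). Genes with at least 10 in 3 libraries were tested as log2(value + 1) with limma 3.58.1 in R 4.3.3, all stages sharing 1 spread (8 residual degrees of freedom). Alternatives were TMM, median-of-ratios, poscounts and equal-total scaling, pseudocounts of 0.1 and 10, no filter or a mean of at least 100, the 2 stages compared alone, a second threshold of 1 on the absolute log2 fold change, leaving out each library, edgeR 4.0.16 and DESeq2 1.42.0 on the recovered reads. A count over members with under 10% of 50-base words in other genes' transcripts, and the column number as a block, were chosen after seeing the data. The shares of reads without Atp5b or Uqcrc1, and the permutation tests of summed shares, were not planned either. On simulated data, limma recovered 200 of 200 genes changed 4-fold among 20970, in the 3 comparisons that involve P0, with at most 7 false calls in any of them. The simulated libraries were scaled by the same size factors that made them, and few genes were changed. The simulation therefore cannot tell which scaling holds for the real libraries, where 95.2% of genes differed among the stages.

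Levels by library were given for isoform sets, core subunits and, per complex and consecutive comparison, the genes of highest and lowest log2 fold change. Some values of complex I are not reported here. Members and lists were chosen with earlier results of these data known.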

Additional observations from a re-analysis of the deposited data

How the results depend on the processing

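Counts of members called higher and lower kept within 1.5 times under most alternatives, and edgeR and DESeq2 on recovered reads differed from limma by at most 1 gene in each. With equal library totals, higher calls became 17 for E16.5 against E13.5, 39 for P0 against E16.5 and 16 for P0 against E13.5, and lower calls became 24 for P0 against E16.5, 17 for P3 against P0 and 13 for P3 against E16.5. Median-of-ratios factors gave 19 higher for P0 against E16.5, 7 lower for P3 against P0 and 13 lower for P3 against E16.5, and TMM 4 lower for P3 against P0. Asking also for a log2 fold change of 1 or more in size left 45 lower for E16.5 against E13.5, 2 higher and 18 lower for P0 against E16.5, 1 lower for P3 against P0, and 37 higher and 2 lower for P3 against E16.5, since it sets a second condition. A mean of at least 100 left 1 lower for P3 against P0 and 2 higher for P0 against E13.5, as fewer genes were tested. Leaving out 1 library gave 6 higher and 71 to 75 lower for E16.5 against E13.5, 11 to 13 and 55 to 62 for P0 against E16.5, 81 to 83 and 1 to 3 for P3 against P0, 4 and 83 to 85 for P0 against E13.5, and 60 to 68 and 5 to 9 for P3 against E16.5. The lower end for P3 against P0 came without P3 library 4, and 5 lower for P3 against E16.5 without P3 library 4 or E16.5 library 1. Reads in place of reads per kb put Cox7b2 at 1.39, 29.8, 41.3 and 53.0% of its pair.

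Of 47 fold changes printed, 8 changed sign or side of the threshold in an alternative. With equal totals, Sdha was 0.32 at E16.5 and -0.12 at P3, Cox4i1 0.16 at E16.5 and Atp5g3 -0.55 at P3. With median-of-ratios factors Sdha was 0.036 at E16.5 and Atp5g3 -0.15 at P3. The others were Ndufs7 and Ndufv1 at E16.5 and Ndufaf6 and Uqcrfs1 at P3, which changed side of the threshold in the direction printed.

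The column heads carry 1, 3 and 4 at every stage, with a meaning not given in the sources used here, and the titles 1, 2 and 3. Over 18 pairs of libraries with the same column number, deviations from the stage means correlated at -0.036 to 0.042. The best match in another stage had the same number in 9 of 36 cases. No pairing by column number was detected, but a small one, or one limited to few genes, could be missed by this check over all genes. With that number as a replicate block, added after seeing the data, members higher and lower were 6 and 74 for E16.5 against E13.5, 12 and 58 for P0 against E16.5, 83 and 2 for P3 against P0, 4 and 85 for P0 against E13.5 and 65 and 8 for P3 against E16.5, and no call of a printed fold change was lost. The planned ratio of mitochondrially encoded to nuclear genes was not run, since the former were listed at 0. The cause of the changes with scaling was not tested. With 3 libraries a stage, an exact permutation test cannot pass 0.05, and amplified reads without molecular identifiers limit what depth adds.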
